A study of Mus musculus with 4 samples.

Results

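The genes described here encode the constant parts of the T cell receptor (TCR) and the CD3 chains that carry it to the cell surface. They are *Trdc* (delta chain), *Trac* (alpha chain), *Trbc1* and *Trbc2* (beta chain), *Trgc2* (gamma chain), *Cd3d*, *Cd3e*, *Cd3g* and *Cd247*. The 9 genes were taken by name, and all 9 were listed among the 24641 genes of the count table of experiment 1 and the 24838 genes of that of experiment 2. Developing T cells join variable and joining segments, and at the beta and delta loci diversity segments, to one another by V(D)J recombination, and splicing of the transcript attaches the constant part. The constant genes can also be transcribed from the unrearranged, germline locus. Innate lymphoid cells (ILCs) are defined by the lack of a rearranged antigen receptor, but they and their precursors are known to carry such transcripts. Reads counted per gene do not show whether a transcript came from a germline or a rearranged locus, and that question was not tested.

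Single-cell RNA-seq had been made from bone marrow α lymphoid progenitors (αLPs; Lin-CD127+FLT3-LPAM-1+ cells) of adult C57BL/6 mice in 2 experiments. Each experiment held wild-type (WT) cells and cells of G3SEKO mice, which lack in the germline the tandem super-enhancers related to *Gata3*, a transcription factor that ILC2s need. Cells of several mice shared a hashtag and cannot be told apart, and the labels of experiment 2 name no strain. G3SEKO mice had been derived by CRISPR editing, and which of the lines gave these cells was not given in the sources used here. The antibodies used to remove lineage-positive cells included one to CD3e, so cells with surface CD3 should be depleted. In experiment 1 each genotype had 3 hashtags, and in experiment 2 each had 1. The label of experiment 2 lists both hashtags under WT, and the second of them was taken as G3SEKO by the rule that defines the groups.

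After the limits on depth, mitochondrial reads and *Id2*, which marks the ILC lineage, 681 WT and 43 G3SEKO cells remained in experiment 1 and 5130 WT and 1159 G3SEKO cells in experiment 2. Experiment 1 was sequenced deeper, with a median of 396198 (WT) and 509911 (G3SEKO) reads per cell, than experiment 2, with 29677 and 42814. The genotype labels were checked with 1700061F12Rik, a gene inside the deleted interval: G3SEKO cells held 1 read of it in each experiment, against 802 and 155 reads in WT cells. *Gata3* was at 608 and 419 reads per 1e+06 reads (CPM) in G3SEKO cells and at 1187 and 1000 CPM in WT cells. *Il7r*, which encodes CD127, was at 1768 CPM or more in all 4 sets of cells. Across the experiments 11 cell barcodes were the same. To follow ILC2 development, cells were placed in 5 exclusive gates at 1 on the scale ln(1 + reads per 10000): ST2+ cells (*Il1rl1* at or above 1), and among the rest Zbtb16+Icos-, Zbtb16+Icos+, Zbtb16-Icos+ and triple-negative cells. *Zbtb16* marks ILC precursors, *Icos* appears with ILC2 commitment, and ST2 marks ILC2s. In WT cells the ST2+ gate held 424 and 3548 cells and the Zbtb16+Icos- gate 64 and 128. In G3SEKO cells the ST2+ gate held only 2 cells in experiment 1 and 50 in experiment 2.

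The members lie at 5 places in the genome (build GRCm38, GENCODE vM21). *Trdc* (chr14:54142851-54148868, plus strand) and *Trac* (chr14:54220521-54224206, plus strand) start 77670 bases apart in 1 locus. *Trbc1* (chr6:41538218-41539881, plus strand) and *Trbc2* (chr6:41546730-41548352, plus strand) start 8512 bases apart. *Cd3g* (chr9:44969572-44980431, minus strand), *Cd3d* (chr9:44981786-44987339, plus strand) and *Cd3e* (chr9:44998740-45009627, minus strand) are neighbours within 40055 bases. *Trgc2* (chr13:19304649-19307551, minus strand) and *Cd247* (chr1:165788681-165877277, plus strand) stand alone among the members.

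*Trbc1* and *Trbc2* are near copies, and the results below differ between them, so the stretch that holds nearly all of their coding differences is shown. Their coding parts of 518 bases differed at 23 positions (95.6% identical). Of these, 1 lay in the 375 bases of exon 1, and 22 lay in the last 136 coding bases, positions 383 to 518, which are spliced from later exons at chr6:41539121-41539662 and chr6:41547617-41548178 (plus strand). The lines give these bases 5′ to 3′ as the GENCODE transcripts have them, and capitals mark the bases that differ.

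Trbc1: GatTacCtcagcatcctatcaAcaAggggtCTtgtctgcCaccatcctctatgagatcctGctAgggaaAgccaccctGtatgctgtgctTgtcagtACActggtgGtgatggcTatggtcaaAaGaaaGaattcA
Trbc2: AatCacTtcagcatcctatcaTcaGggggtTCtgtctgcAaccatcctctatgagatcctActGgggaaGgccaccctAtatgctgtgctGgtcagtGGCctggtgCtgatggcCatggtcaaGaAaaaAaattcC

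The bases after the coding part, 219 in *Trbc1* and 174 in *Trbc2*, were not compared. The longest coding run the pair shares was 259 bases, so a read from inside it could have been counted for either gene. The gamma genes are also alike: *Trgc2* was identical to *Trgc1* at 97.4% of aligned coding bases, with no shared run over 86 bases, and to *Trgc4* at 78.9%. How the authors' counting treated reads that fit several genes is not given in the sources used here, so the split between *Trbc1* and *Trbc2*, and between *Trgc1*, *Trgc2* and *Trgc3*, is uncertain. Levels are compared below within a gene and never between genes, because the reads were not scaled by length.

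*Trbc1* was lower in ST2+ cells than in ILC precursors of WT mice. Its summed reads stood at 2757 CPM (experiment 1) and 2140 CPM (experiment 2) in Zbtb16+Icos- cells, 2382 and 2288 CPM in Zbtb16+Icos+ cells, 1273 and 649 CPM in Zbtb16-Icos+ cells, and 252 and 284 CPM in ST2+ cells. Triple-negative cells lay between, at 872 and 413 CPM. The level was thus 10.9 and 7.53 times higher in Zbtb16+Icos- than in ST2+ cells in experiments 1 and 2. In both experiments the level ran down from the Zbtb16+ gates over Zbtb16-Icos+ to ST2+ cells, with no overlap, while the Zbtb16+Icos- and Zbtb16+Icos+ gates overlapped. No cell dominated: the cell with most *Trbc1* reads held at most 10.3% of the reads of any WT gate. In edgeR's quasi-likelihood test over sums per gate and experiment, *Trbc1* was lower in ST2+ than in Zbtb16+Icos- cells by a log2 change of -3.11 (SE 0.33, adjusted p = 0.00926). It was the only one of the 9 members past the threshold in this contrast, in which 407 of 19443 genes tested were called (2.09%; 0.977% higher and 1.12% lower in ST2+ cells). DESeq2 called 10.6% of the same genes and, of the members, again only *Trbc1* (log2 change -3.15). The p-values measure only the spread between the sums of 2 experiments, and sums cannot tell fewer cells that carry a transcript from less of it per cell.

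The share of cells with a *Trbc1* read was also higher in both Zbtb16+ gates than in Zbtb16-Icos+ cells and lowest of these 4 gates in ST2+ cells. After each cell was thinned to the least depth allowed in experiment 2, 98.4% of Zbtb16+Icos-, 94.1% of Zbtb16+Icos+, 64.3% of Zbtb16-Icos+ and 43.4% of ST2+ WT cells kept one in experiment 1. In experiment 2 the shares were 88.3%, 84.3%, 49.3% and 40.4%. Triple-negative cells did not keep their place: their shares of 65.3% and 38.7% lay above that of Zbtb16-Icos+ cells in experiment 1 and below that of ST2+ cells in experiment 2, with intervals that overlap in both cases. Unthinned, 97.6% or more of the cells of every WT gate of experiment 1 had a read, and in experiment 2 94.5% of Zbtb16+Icos- and 61.1% of ST2+ cells. Cells of other lineages, called from at least 2 B cell, myeloid or erythroid genes at or above 1, held 24.4 CPM of *Trbc1* (10 cells, experiment 1) and 18.6 CPM (15 cells, experiment 2), and 100% and 53.3% of them had a read. Of these 10 and 15 cells, 1 and 5 also passed the *Id2* limit. In experiment 2 they were deeper, at a median of 75028 reads against 29677 in kept WT cells. There 1 cell held 69.2% of the *Trbc1* reads, and without it the level was 5.91 CPM. With reads also in these cells, a *Trbc1* read was not taken by itself as a sign of expression, and the levels carry the comparison.

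**Figure D1:**
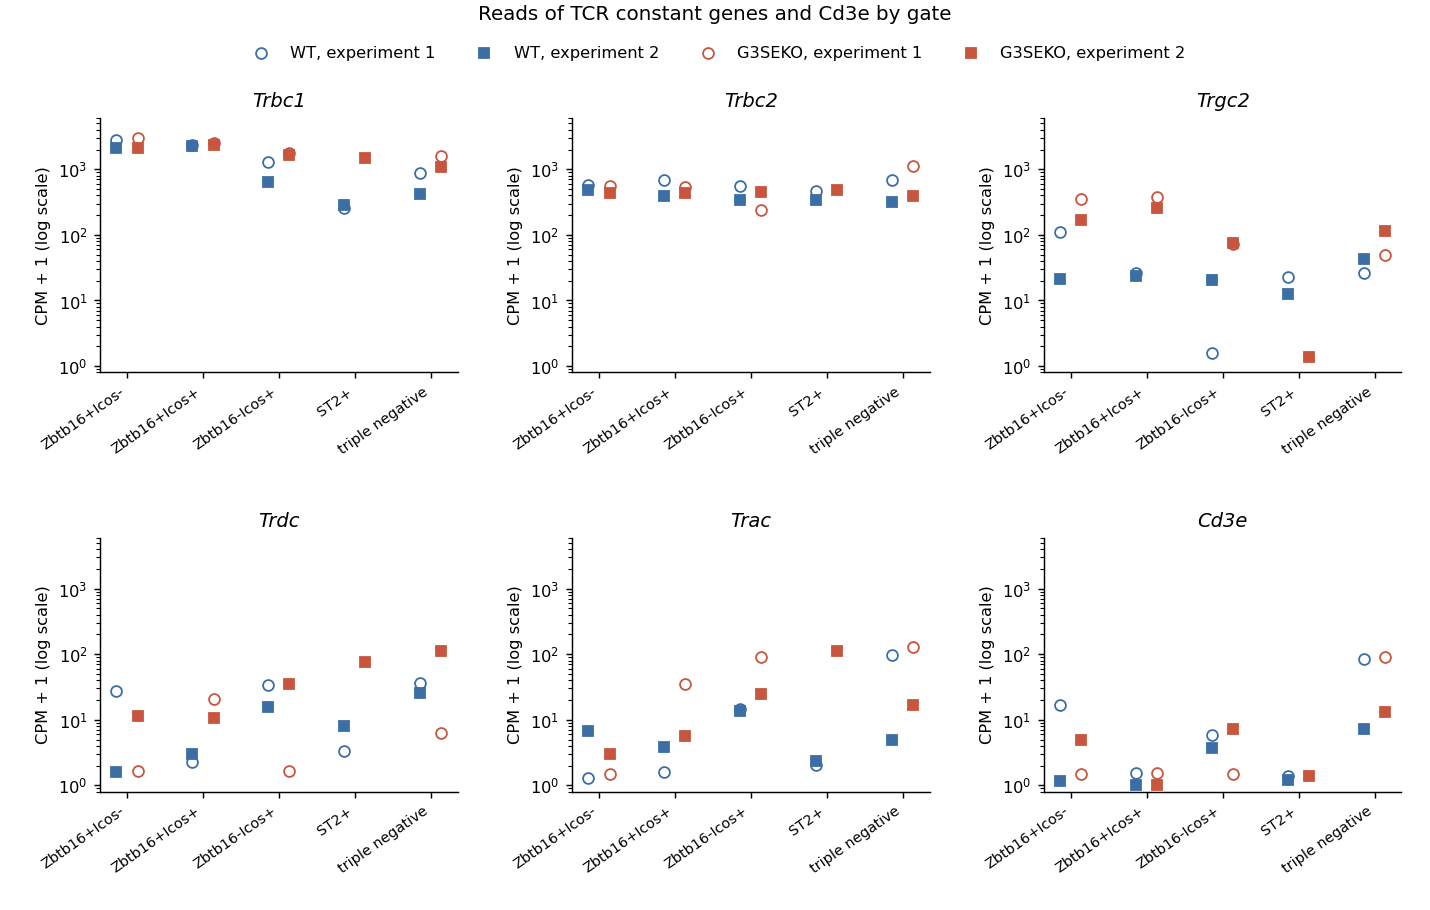
Reads of 6 members summed per gate, as CPM + 1 on a log axis, for WT (blue) and G3SEKO (red) cells of experiment 1 (open circles) and experiment 2 (filled squares); the sum of 2 G3SEKO ST2+ cells of experiment 1 is left out. *Trbc1* falls from between 2140 and 2757 CPM in both Zbtb16+ gates of WT cells to 252 and 284 CPM in WT ST2+ cells, while the G3SEKO ST2+ cells of experiment 2 stand at 1503 CPM.

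*Trbc2*, the other beta constant gene, did not pass the test between the gates of WT cells. Its levels were 586 and 481 CPM in Zbtb16+Icos- cells, 697 and 393 CPM in Zbtb16+Icos+ cells, 553 and 337 CPM in Zbtb16-Icos+ cells and 461 and 337 CPM in ST2+ cells, and the experiments differed by about as much as the gates. The log2 change from Zbtb16+Icos- to ST2+ cells was -0.41 (SE 0.20), with an adjusted p of 0.423 in edgeR's quasi-likelihood test. *Trbc2* thus did not pass the threshold in a contrast in which *Trbc1* did. The difference between the changes of these 2 genes was not tested.

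The delta, alpha and gamma constant genes were low and uneven in WT cells. *Trdc* stood between 1.26 and 35.8 CPM over the 5 gates of experiment 1 and between 0.600 and 24.6 CPM in experiment 2, and *Trac* between 0.287 and 96.6 CPM and between 1.32 and 12.6 CPM. For both genes the triple-negative or the Zbtb16-Icos+ gate was the highest in each experiment. *Trgc2* ranged from 0.565 CPM (Zbtb16-Icos+) to 110 CPM (Zbtb16+Icos-) in experiment 1 and from 11.4 CPM (ST2+) to 41.2 CPM (triple-negative) in experiment 2, so the experiments did not give the same order. Much of this came from few cells. In Zbtb16+Icos- cells of experiment 1, for example, 1 of 64 cells held 67.1% of the *Trdc* reads, and without it the level was 8.71 CPM instead of 26.0 CPM. None of the 3 genes passed the threshold between gates, and their standard errors in the ST2+ contrast were 1.41 to 1.75 on the log2 scale.

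*Cd3d*, *Cd3e* and *Cd3g* were at 6.09 CPM or less in the ST2+ and Zbtb16+Icos+ gates of WT cells and highest in triple-negative cells, whereas *Cd247* did not follow this order. *Cd3e*, which every surface TCR needs, was at 0.387 and 0.223 CPM in ST2+ cells and had no read in the 102 Zbtb16+Icos+ cells of experiment 2 (95% exact binomial interval up to 3.55% of cells). Its highest WT level was 82.2 CPM in triple-negative cells of experiment 1, where 17 of 75 cells had a read. In Zbtb16+Icos- cells of experiment 1 it stood at 16.0 CPM, but 1 cell held 98.3% of these reads. *Cd247* encodes the zeta chain, which also serves natural killer receptors, and was at 44.0 and 19.6 CPM in Zbtb16+Icos- cells, against 10.6 and 12.6 CPM in ST2+ cells (log2 change -1.25, SE 0.68, adjusted p = 0.492 in edgeR's test). Its highest WT level was in triple-negative cells in experiment 1 (70.3 CPM) but in Zbtb16+Icos+ cells in experiment 2 (30.2 CPM), where triple-negative cells were the lowest (12.4 CPM), and Zbtb16+Icos+ cells of experiment 1 stood at 39.8 CPM. The other-lineage cells had no *Cd3e* read and at most 0.677 CPM of *Cd3g* and 2.37 CPM of *Cd247*. *Cd3d* was at 0.790 and 4.29 CPM in them, the latter from 9 reads in 1 of 15 cells, which is above the 2.46 and 3.41 CPM of *Cd3d* in WT ST2+ and Zbtb16+Icos+ cells of experiment 2.

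**Figure D2:**
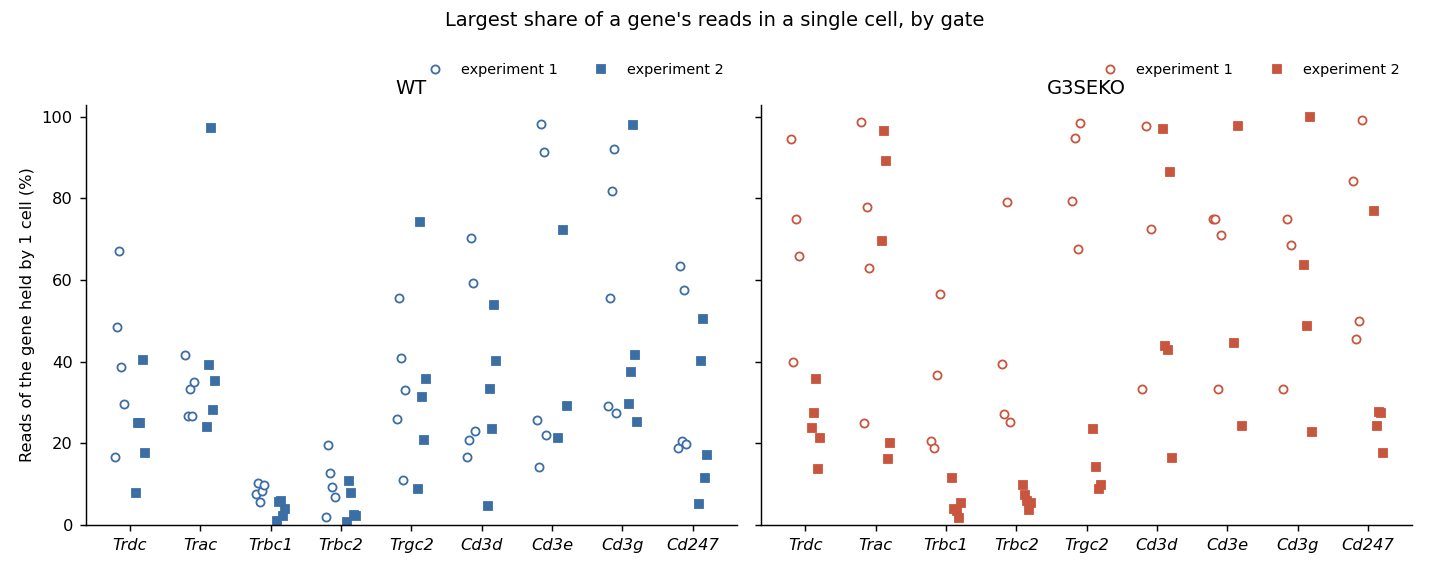
Share of the reads of each member that the cell with most of them held, in %, with 1 point per gate for WT (left) and G3SEKO cells (right) of both experiments; sums of fewer than 3 reads or 5 cells are left out. *Trbc1* and *Trbc2* were spread over many cells in experiment 2, whereas single cells held up to 98.8% of the *Trac* and 98.3% of the *Cd3e* reads of a gate.

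Between the other gates fewer genes changed. From Zbtb16+Icos- to Zbtb16+Icos+ cells edgeR called 1 of 19443 genes (0.00514%), which was *Icos*, the gene that divides the gates, and 0 of the 9 members. Here *Cd3g* (log2 change -4.55, SE 1.02) and *Cd3e* (-4.42, SE 1.60) had unadjusted p-values under 0.05, and DESeq2, which called 3.64% of the genes, called *Cd3g* among the members. In experiment 2, however, 1 of the 128 Zbtb16+Icos- cells held 97.9% of the *Cd3g* reads. From Zbtb16+Icos- to Zbtb16-Icos+ cells edgeR called 65 genes (0.334%) and again 0 members. *Trbc1* was lower in Zbtb16-Icos+ cells by -1.37 on the log2 scale (SE 0.31), with an unadjusted p of 0.00327 and an adjusted p of 0.146. DESeq2 called 8.19% of the genes in this contrast and *Trbc1* among them (log2 change -1.40, adjusted p = 0.00275).

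Other genes of receptor signalling were read beside the members, in lists chosen for their function, and their counts of calls stand beside 2.09% of all genes called. Of the 3 further gamma constant genes, *Trgc1* (log2 change -1.35, SE 0.19, adjusted p = 0.0222) and *Trgc4* (-1.51, SE 0.28, adjusted p = 0.04996) were lower in WT ST2+ than in Zbtb16+Icos- cells. *Trgc4* is at the threshold and lies at 0.051 without the filter on low counts and at 0.0503 with no *Id2* limit, and *Trgc1* lost its call with the gates at 1.5 (-1.15, adjusted p = 0.128). Of 30 genes of proximal TCR signalling, *Trat1* (-4.61, SE 0.52), which encodes an adaptor bound to the TCR complex, and *Cd28* (-6.38, SE 1.06), the costimulatory receptor, fell, *Ubash3b* (1.11, SE 0.19), a phosphatase that restrains the signal, rose, and 27 did not pass. *Ubash3b* lost its call with the gates at 0.5 (adjusted p = 0.076), with the gates at 1.5 (0.052) and without the block of experiments (0.067). Of 5 genes of signalling adaptors and their partner receptors, *Fcer1g* (-5.96, SE 0.54) and *Tyrobp* (-6.92, SE 0.85) fell and *Hcst* (1.59, SE 0.22) rose. Of 15 transcription factors of the T lineage, *Tcf7* (-5.19, SE 0.59) fell and *Runx1* (2.37, SE 0.37) rose, while 13 did not pass. *Runx1* lost its call with no *Id2* limit, where its change was 0.54 (adjusted p = 0.512), with the gates at 0.5 (2.05, adjusted p = 0.1004) and in thinned cells (1.52, adjusted p = 0.068). Without the block of experiments *Cd28* (-5.77, adjusted p = 0.104), *Hcst* (1.47, 0.594), *Tyrobp* (-6.66, 0.0559), *Trgc1* (-1.32, 0.0592) and *Trgc4* (-1.51, 0.0607) lost theirs, though the changes kept their direction. The 3 coreceptor genes and the 3 recombination genes tested gave no call. The median log2 change was 0.09 for the signalling list, -2.76 for the adaptors and -0.06 for the transcription factors, against 0.06 over all genes tested. All these calls are by edgeR's test at an adjusted p under 0.05.

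In the ST2+ gate the genotypes differed in *Trdc*, the contrast by which these genes were chosen, and the values are therefore given with no test. In experiment 2 the 50 G3SEKO cells held 194 *Trdc* reads (75.6 CPM) and the 3548 WT cells 1042 reads (7.03 CPM). The ratio was 10.8-fold (95% interval 9.18 to 12.6, for counting error alone, and reads of 1 molecule were not collapsed). In experiment 1 the WT level was 2.34 CPM over 424 cells, and the 2 G3SEKO cells held 226 and 67 reads. Only 1 of these 2 cells lacked CD3 gene expression, so experiment 1 gives no level for comparison. In experiment 2 the G3SEKO level of *Trdc* was the higher one in every gate. In triple-negative cells, some of which expressed a CD3 gene, G3SEKO minus WT on log2(CPM + 1) was 2.15 in experiment 2 but -2.57 in experiment 1. Thinned as above for *Trbc1*, 11.8% of G3SEKO (8.79 to 15.5%) and 2.19% of WT triple-negative cells (1.28 to 3.48%) kept a *Trdc* read in experiment 2.

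The reads of *Trdc* were not held by a single cell. In experiment 2, 12 of the 50 G3SEKO cells (24.0%, 95% exact binomial interval 13.1 to 38.2%) and 172 of the 3548 WT cells (4.85%, 4.16 to 5.61%) had a *Trdc* read. Among the 12, the highest had 46 reads, the next 42, the median 10 and the lowest 1. The cell with 46 reads held 23.7% of the G3SEKO reads, and without it, and without the top WT cell, the levels were 60.2 and 6.48 CPM. None of these 12 cells expressed a CD3 gene at the limit used. Each had its own hashtag as the highest, as did all 1159 kept G3SEKO cells. The hashtags gave the genotype, so this is no separate check of it. After thinning to the same least depth as above, a *Trdc* read was kept by 16.0% of the G3SEKO cells (7.17 to 29.1%) and by 1.66% of the WT cells (1.27 to 2.14%). In the 15 other-lineage cells of experiment 2, at a median of 75028 reads, 3 had a *Trdc* read (20.0%, 4.33 to 48.1%), each 1 read, for a level of 1.43 CPM. The unthinned share of G3SEKO cells with a read lay inside the interval of these cells, whereas the level was higher. The shares are at unlike depth, since the G3SEKO ST2+ cells had a median of 42235 reads.

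**Figure D3:**
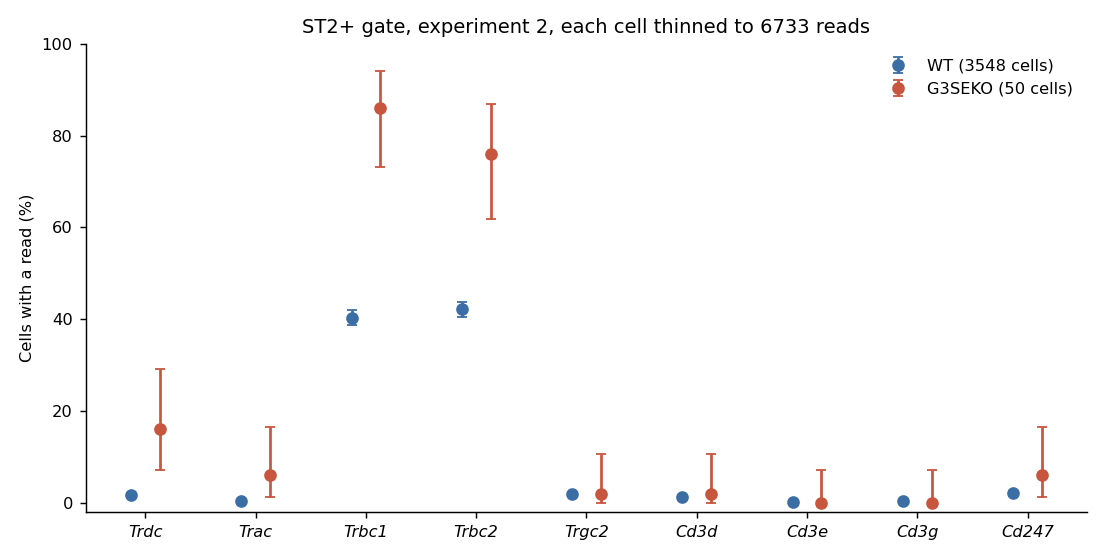
Share of ST2+ cells of experiment 2 with at least 1 read of each member, in %, after thinning each cell to the least depth allowed, for WT (blue, 3548 cells) and G3SEKO (red, 50 cells), with exact 95% binomial intervals that cover counting error only. *Trdc*, *Trac*, *Trbc1* and *Trbc2* reads were found in a larger share of G3SEKO than of WT cells, and the intervals of *Trgc2*, *Cd247* and the 3 CD3 genes overlap.

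In experiment 2 *Trbc1* was also the higher in G3SEKO ST2+ cells, on a broader base. It stood at 1503 CPM in the 50 G3SEKO ST2+ cells and at 284 CPM in WT ones, a ratio of 5.29-fold (5.11 to 5.46, counting error alone), and the top cell held 11.6% of the G3SEKO reads. A *Trbc1* read was found in 47 of the 50 cells, with a median of 58 reads among them, and after thinning in 86.0% of G3SEKO and 40.4% of WT cells. *Trbc2* was at 485 against 337 CPM, and in thinned cells its shares were 76.0% and 42.1%. *Trac* was at 109 against 1.32 CPM, but 1 of 6 cells with a read held 69.6% of it, and without the top cells the levels were 34.4 and 1.01 CPM. The 2 G3SEKO ST2+ cells of experiment 1 did not all go this way. They held 363 and 12 reads of *Trbc1* (845 and 13.0 CPM, against 252 CPM over the WT cells), 5 and 6 reads of *Trbc2* (8.15 CPM together, against 461 CPM) and no read of *Trac* (against 1.06 CPM).

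For the remaining members the ST2+ values rested on few cells. *Cd247* was at 39.0 against 12.6 CPM, with 77.0% of the G3SEKO reads in 1 cell, and at 9.43 against 11.9 CPM without the top cells. *Cd3d* was at 13.6 against 2.46 CPM, with 34 of 35 reads in 1 cell, and was at 0.396 against 2.34 CPM without the top cells. *Cd3e* had 1 read in 1 of 50 G3SEKO cells, and *Cd3g* had none, which allows up to 1.17 CPM (3 reads), against 0.223 and 2.30 CPM in WT cells. With the gates at 0.5, *Cd3e* was at 6.36 against 0.216 CPM and *Cd3g* at 10.6 against 2.16 CPM, so the direction of *Cd3g* turned. In the 32 G3SEKO cells just outside the limit, however, 1 cell held 100% of the *Cd3g* reads and 1 cell 96.2% of the *Cd3e* reads. With the gates at 1.5, *Cd3d* (0.604 against 2.38 CPM) and *Cd247* (4.83 against 12.05 CPM) turned. *Trgc2* had 1 read in the G3SEKO cells of experiment 2 against 1695 in the WT cells, a ratio of 0.0341 with a counting interval from 8.63e-04 to 0.190. With the gates at 0.5 it turned to 181 against 11.6 CPM. The other gamma genes were higher in the G3SEKO ST2+ cells of experiment 2: *Trgc1* at 900.3 against 454 CPM, *Trgc3* at 20.3 against 11.96 CPM and *Trgc4* at 959.9 against 432 CPM. The split of *Trgc1* and *Trgc3* from *Trgc2* is uncertain, whereas *Trgc4* is less alike.

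Marker genes differed between the genotypes inside the ST2+ gate, and their values are given beside the result. In experiment 2 the G3SEKO ST2+ cells had 572 CPM of *Il1rl1* against 1363 CPM in WT, 294 against 1039 CPM of *Gata3*, 302.6 against 30.6 CPM of *Zbtb16* and 790 against 42.7 CPM of *Tcf7*. The summed level of 5 ILC2 markers was 1676 against 3580 CPM and that of 5 ILC precursor markers 1775 against 162 CPM. The 8 T cell markers summed to 179 against 80.2 CPM, with 4 of 8 (*Cd4*, *Cd8a*, *Cd6* and *Cd28*) at 0 in the G3SEKO cells. Natural killer and ILC1 markers stood at 43.3 against 2.401 CPM, LTi and ILC3 markers at 163 against 25.3 CPM and B cell markers at 102.9 against 35.7 CPM. Divided at *Zbtb16*, the 38 G3SEKO cells below 1 had 105 CPM of *Trdc* (10 cells with a read) against 7.28 CPM in 3400 WT cells, and the 12 at or above 1 had 15.4 CPM (2 cells) against 1.43 CPM in 148 WT cells. For *Trbc1* the values were 1492 against 281 CPM and 1525 against 355 CPM. In the G3SEKO cells at or above 1, however, 1 cell held 12 of the 13 *Trdc* reads, and without the top cells the levels were 1.26 CPM in G3SEKO, which is under the floor of 3.55 CPM that 3 reads give, and 0.798 CPM in WT. For *Trbc1* the G3SEKO level was the higher one on both sides of the division, also without the top cells (1308 against 279 CPM and 1387 against 341 CPM), and for *Trdc* this holds below 1 (83.6 against 6.70 CPM). The part of the gate's makeup in these differences was not tested.

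Around the limit that defines the ST2+ gate the members had these values. In experiment 2 the 16 G3SEKO cells just inside it (*Il1rl1* from 1 to below 1.5) had 47.3 CPM of *Trdc* and 1851 CPM of *Trbc1*, and the 32 cells just outside it (from 0.5 to below 1) had 100.04 and 2334 CPM. The *Trdc* value inside is not a level of the 16 cells, since 1 cell held 97.7% of its 43 reads, against 35.7% for the top cell outside. The WT cells had 15.1 and 354 CPM just inside (391 cells) and 1.59 and 461 CPM just outside (326 cells). *Trgc2* had 0 reads in the 16 G3SEKO cells inside and 458 CPM in the 32 outside, where 1 cell held 77.4% of it.

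In the precursor gates before ST2, where the genotype contrast had not chosen the genes, 0 members passed the test. The contrast averages Zbtb16+Icos-, Zbtb16+Icos+ and Zbtb16-Icos+ cells, 27 G3SEKO and 182 WT cells in experiment 1 and 720 and 804 in experiment 2. edgeR called 0 of 21047 genes (0%), with 1180 at an unadjusted p under 0.05, and DESeq2 called 170 (0.808%). The median log2 change over all genes was -0.16 with edgeR's scaling and -0.04 with that of DESeq2, and the members' changes are read beside it. *Trgc2* had the largest change among the members with an unadjusted p under 0.05: 282 CPM in G3SEKO against 50.9 CPM in WT cells in experiment 1, and 150 against 20.1 CPM in experiment 2. Its G3SEKO level was the higher one in each of the 3 gates of both experiments (log2 change 2.86, SE 0.70, unadjusted p = 0.00163, adjusted p = 0.857 in edgeR's test), and DESeq2 called it (2.95, adjusted p = 0.00310). Per hashtag of experiment 1, *Trgc2* stood at 266, 609 and 93.1 CPM in G3SEKO and at 19.7, 60.0 and 71.7 CPM in WT precursors, over 4 to 15 G3SEKO cells a hashtag. These values did not overlap, but 1 cell held 88.5%, 90.0% and 96.8% of the reads of the 3 G3SEKO hashtags. Without the top cell of each hashtag the levels were 33.3, 81.6 and 3.82 CPM in G3SEKO and 10.9, 9.86 and 29.0 CPM in WT cells, which overlap. In experiment 2 the top cell held 10.5% of the G3SEKO reads. Without the top cell of each sum the log2 change was 2.18 (SE 0.95).

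*Trbc1* in precursors stood at 2486 against 2117 CPM in experiment 1 and 1990 against 1212 CPM in experiment 2 (log2 change 0.35, SE 0.16, adjusted p = 0.857 in edgeR's test). The levels were close in both Zbtb16+ gates: 2970 against 2757 CPM and 2140 against 2140 CPM in Zbtb16+Icos- cells, and 2537 against 2382 CPM and 2353 against 2288 CPM in Zbtb16+Icos+ cells. In Zbtb16-Icos+ cells they were 1780 against 1273 CPM and 1677 against 649 CPM, a log2 change of 0.90 (SE 0.28, unadjusted p = 0.00754, adjusted p = 0.919). The difference between the genotype effects in Zbtb16-Icos+ and Zbtb16+Icos- cells was 0.81 (SE 0.39, unadjusted p = 0.0598, adjusted p = 1), so a stage-dependent effect was not shown by edgeR's test. *Trdc* (log2 change 0.07, SE 1.17) went in opposite directions in the experiments, 7.29 against 23.5 CPM and 20.9 against 10.1 CPM. *Trbc2* (-0.16, SE 0.25) and *Trac* (1.27, SE 1.06) did not pass either. *Cd247* was at 2.73 against 34.6 CPM and 16.4 against 22.9 CPM (log2 change -1.77, SE 0.75, unadjusted p = 0.0386, adjusted p = 0.857). None of the signalling, adaptor, transcription factor, coreceptor or recombination genes of the lists was called by edgeR in this contrast.

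Few of the kept cells expressed a CD3 gene. With *Cd3d*, *Cd3e* or *Cd3g* at or above 1 on the scale of the gates, they were 27 of 681 WT cells (3.96%, 95% exact binomial interval 2.63 to 5.72%) and 5 of 43 G3SEKO cells (11.6%, 3.89 to 25.1%) in experiment 1. In experiment 2 they were 43 of 5130 WT cells (0.838%, 0.607 to 1.127%) and 29 of 1159 G3SEKO cells (2.50%, 1.68 to 3.57%). After thinning the shares were 3.23% and 9.30% in experiment 1 and 0.663% and 2.50% in experiment 2. The triple-negative gate held 15 of the 27 and 14 of the 43 WT cells and 3 of the 5 and 20 of the 29 G3SEKO cells. The share was higher in G3SEKO cells in both experiments, and this difference was not tested. The intervals cover counting error over cells only, and cells of 1 hashtag pool are not replicates of a genotype.

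*Trdc*, *Trac* and *Cd247* were high in the CD3 gene-expressing cells. *Trdc* stood at 141 CPM in CD3 gene-expressing against 8.96 CPM in CD3-negative WT cells of experiment 1, and at 442 against 6.27 CPM in experiment 2. In G3SEKO cells it was at 20.9 against 15.3 CPM over only 5 cells in experiment 1, and at 838 against 29.1 CPM in experiment 2. *Cd247* was higher in CD3 gene-expressing cells in all 4 sets, at 82.2 to 212 CPM against 2.16 to 22.9 CPM, and *Trac* at 52.4 to 324 CPM against 2.82 to 28.5 CPM. Single cells weighed on these sums: 1 cell held 60.2% of the *Trdc* reads of the CD3 gene-expressing WT cells and 98.5% of those of the G3SEKO cells of experiment 1, and 86.1% of the *Trac* reads of the WT ones of experiment 2. *Trbc2* was at 880 against 519 CPM, 358 against 342 CPM, 2009 against 459 CPM and 1093 against 417 CPM in WT and then G3SEKO cells of experiments 1 and 2. *Trbc1* did not go in one direction: it was at 905 against 986 CPM and 868 against 474 CPM in WT cells, and at 651 against 2315 CPM and 1747 against 1755 CPM in G3SEKO cells.

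**Figure D4:**
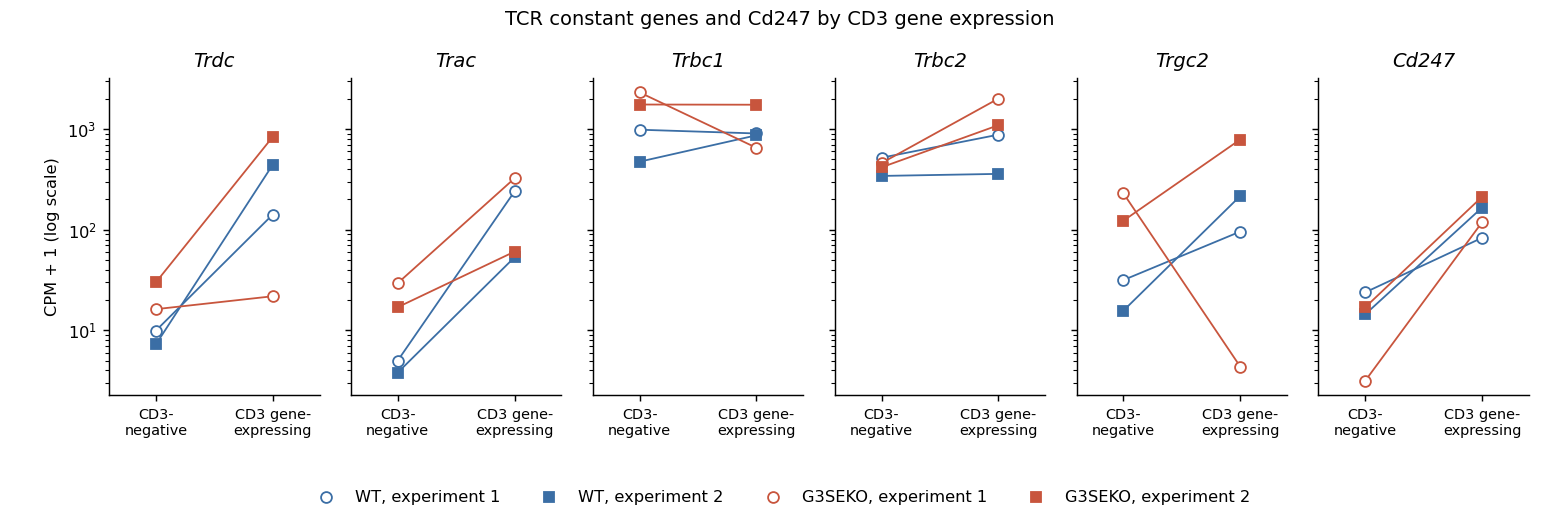
Levels of the 5 TCR constant genes and *Cd247*, as CPM + 1 on a log axis, in CD3-negative and CD3 gene-expressing cells, with a line for each genotype and experiment. *Trac*, *Cd247* and *Trdc* are higher at the right end of all 4 lines, *Trdc* by little in the 5 G3SEKO cells of experiment 1, while the lines of *Trbc1* run flat, up or down.

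Tested over the 4 pairs of sums, edgeR called 10 of 17918 genes (0.0558%), among them *Cd3d*, *Cd3e* and *Cd3g*, which defined the groups. Of the other 6 members 0 passed: *Trdc* (log2 change 4.27, SE 0.90), *Trac* (4.07, SE 0.73), *Cd247* (3.89, SE 0.74) and *Trbc2* (1.29, SE 0.35) each had an adjusted p of 0.259 and unadjusted p-values of 0.00549 or less. *Trbc1* (-0.05, SE 0.35) and *Trgc2* (1.83, SE 1.45) had larger ones. DESeq2 called 1299 genes (7.25%) and among the members *Trdc*, *Trac* and *Cd247*, so these calls depend on the tool. The median log2 change over all genes tested was -0.70, and -0.55 with DESeq2, and the members' changes are read beside it. Of the 30 proximal signalling genes 1 was called, *Cd2* (6.59, SE 0.51, adjusted p = 0.00269), an adhesion receptor of T and natural killer cells. The summed T cell markers moved with this division, at 390 to 1160 CPM in CD3 gene-expressing against 92.9 to 195 CPM in CD3-negative cells. Natural killer and ILC1 markers were also higher in each pair, at 205 to 1475 against 12.4 to 317 CPM. In G3SEKO cells of experiment 2, however, they differed little, at 205 against 169 CPM. *Cd4* had 1 read or none in 3 of the 4 sets of CD3 gene-expressing cells and was in 1 cell of the other one. The part of other cell types in the members' levels was not tested.

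*Trdc* was also found at a high level in cells without CD3 gene expression. With *Trdc* at or above 1 on the scale of the gates, 59 of 1130 CD3-negative G3SEKO cells (5.22%, 3.998 to 6.68%) and 40 of 5087 WT cells (0.786%, 0.562 to 1.07%) qualified in experiment 2, and 2 of 38 and 8 of 654 in experiment 1. Of the 59 G3SEKO cells, 51 also had *Trbc1* at or above 1 and 18 had a read of a delta variable or joining segment. Of the 40 WT cells these numbers were 7 and 4. Over all CD3-negative cells of experiment 2 *Trbc1* was at or above 1 in 861 of 1130 G3SEKO cells (76.2%) and 1789 of 5087 WT cells (35.2%), and no difference of the cells with *Trdc* from these shares was tested. In experiment 1 *Trbc1* reached the limit in 8 of the 8 WT and 2 of the 2 G3SEKO cells.

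Reads of the beta variable and joining segments, which recombine with each other and are spliced to a beta constant gene, were summed per kind of segment. The kinds are not compared with each other. In CD3-negative cells reads of the beta joining segments (*Trbj*) were present in 49.8% (WT) and 76.3% (G3SEKO) of the cells of experiment 1, and experiment 2 had 21.5% and 52.6%. They summed to 28.0 and 45.6 CPM and to 28.4 and 87.7 CPM. Reads of the beta variable segments (*Trbv*) were found in 4.13% and 7.89% and in 0.609% and 1.06% of these cells, with levels of 0.760 and 0.936 CPM (experiment 1) and of 0.714 and 1.28 CPM (experiment 2). In CD3 gene-expressing cells the variable segments summed to 7.56 to 20.9 CPM and the joining segments to 7.97 to 67.3 CPM. The tables list 13 and 14 joining but only 4 and 5 variable segments by symbol, and segments not listed were not analysed here. Median depth was higher in G3SEKO cells and these shares were not thinned, so the CPM values carry the comparison between genotypes, which was not tested. Of the delta segments, *Trdv* reads summed to 18.6 and 17.0 CPM in WT ST2+ cells and were absent from the 50 G3SEKO ST2+ cells of experiment 2 (floor of 1.17 CPM), whereas *Trdj* reads stood at 0.283 CPM in the WT and 12.9 CPM in the G3SEKO cells, in 3 of 50 cells.

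Some genes varied over the WT gates much as the members did. Over 10 sums (5 gates in 2 experiments, each centred on its experiment) and 9737 genes, the genes most like *Trbc1* were *Clip4* (Pearson's r = 0.989) and *Coro7* (0.988), and those most like *Trbc2* were *Mzt2* (0.969) and *Gm44502* (0.963). For *Trdc* they were *Cox7c* (0.938) and *Napa* (0.931), and for *Trac* *Nutf2* (0.966) and *Tram2* (0.943). *Cd3d* and *Cd3e* both had *Nfyb* and *AC109138.2* as the nearest (0.940 to 0.972). *Trgc2* had *Fam214b* (0.954) and *Gga1* (0.949), *Cd3g* had *Itm2a* (0.964) and *Smpd5* (0.945), and *Cd247* had *Fkbp1a* (0.934) and *Stat5a* (0.929). With 10 sums and so many genes such values describe these libraries only, and the sums share libraries and differ in depth.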

How the data were processed

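The authors prepared libraries by TAS-Seq on BD Rhapsody, aligned reads with Bowtie2 to GRCm38 (Ensembl annotation) and deposited, per cell and gene, raw counts of reads, not collapsed to molecules; deposited hashtag counts were used in the same form. Cells were kept at a depth of 83012 reads (experiment 1) or 6733 (experiment 2) or more, with mitochondrial reads at or under 10% and *Id2* at or above 1 on ln(1 + reads per 10000). Doublets were treated through the authors' hashtag calls alone, and 102 cell columns without a single hashtag were not used. Reads were summed per gate, genotype and experiment, leaving out sums of under 5 cells, and tested with edgeR 4.0.16 (TMM, low-count filter, experiment as a block; quasi-likelihood test with Benjamini-Hochberg adjustment over all genes). DESeq2 1.42.0 was an alternative. The tests were run on simulated counts with a common spread and large changes in well-covered genes. This does not check them for genes whose reads are few or sit in single cells. The study's tests over cells were not repeated, since cells are not replicates. Experiments pair the genotypes because cells of both were processed in the same libraries. The members and lists were chosen with earlier results of these data known. Named genes are all 9 members, up to 4 called genes with the largest changes per list, and the 2 most alike genes per member.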

Additional observations from a re-analysis of the deposited data

Results flagged for a closer look

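Cells with *Id2* below 1, which the comparisons above leave out, held many CD3 gene-expressing cells. In experiment 2 these were 143 of 288 G3SEKO cells (49.7%, 95% exact binomial interval 43.7 to 55.6%) and 53 of 945 WT cells (5.61%, 4.23 to 7.27%), the higher share being that of the G3SEKO cells. In experiment 1 they were 5 of 20 G3SEKO cells (25.0%, 8.66 to 49.1%) and 19 of 56 WT cells (33.9%, 21.8 to 47.8%), so the shares ran the other way. The intervals cover counting error over cells only, and the difference between the genotypes was not tested. In experiment 2 the *Trdc* level of these CD3 gene-expressing cells was 1452 CPM in G3SEKO and 974 CPM in WT cells, that of *Cd3e* 596 and 531 CPM, and that of *Lef1*, a T lineage transcription factor, 427 and 562 CPM. *Cd4* had no read in either, which allows up to 0.768 and 1.95 CPM. Of the 143 cells 138 lay in the triple-negative gate.

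With the gates at 1, *Trgc2* was higher in G3SEKO than in WT cells in the precursor gates and lower in the ST2+ gate, which was not tested. On the scale log2(CPM + 1), G3SEKO minus WT was 1.65 and 3.01 in Zbtb16+Icos- cells (experiments 1 and 2), 3.87 and 3.43 in Zbtb16+Icos+ cells and 5.56 and 1.91 in Zbtb16-Icos+ cells. In ST2+ cells it was -3.71 and -3.16. The ST2+ values rest on 1 *Trgc2* read in 2 G3SEKO cells and 1 read in 50. With the gates at 0.5 the ST2+ log2 ratio of experiment 2 was 3.97, so the lower value there depends on the limit. Among the 32 G3SEKO cells just outside the limit of 1, 9 had a *Trgc2* read, and 1 cell held 77.4% of the reads.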

How the results depend on the processing

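The number of members called was 1 from Zbtb16+Icos- to ST2+ cells under every setting tested. For genotype in the precursor gates it was 0, but 1 with DESeq2 and 1 in thinned cells, *Trgc2* in both. For CD3 gene expression it was 0, but 4 with 2 of 3 CD3 genes required, 4 with *Cd3e* alone, 3 with DESeq2, 3 with no *Id2* limit and 5 in thinned cells. Without the replicate block of experiments these numbers were 1, 0 and 0, and *Trbc1* changed by -3.18 from Zbtb16+Icos- to ST2+ cells, while *Cd28*, *Hcst*, *Trgc1*, *Trgc4*, *Tyrobp* and *Ubash3b* were no longer called. In that contrast 407 genes were called, against 2055 with DESeq2, 752 in thinned cells and 176 without the block. For genotype, 0 genes were called, against 170 with DESeq2, 94 in thinned cells and 1 with the gates at 1.5. For CD3 gene expression 10 were called, against 1299 with DESeq2, 117 with 2 of 3 genes, 113 with *Cd3e* alone, 53 with no *Id2* limit and 110 in thinned cells. Over all settings the list genes lost 14 calls: those 6 without the block, *Runx1* in 3 settings, *Ubash3b* in 2, *Trgc4* in 2 and *Trgc1* in 1, and the cause was not tested.

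The ST2+ log2 ratio of *Trdc* was 3.42, and 3.21 without the top cells, 3.32 with no *Id2* limit, 3.66 as a mean of cells, 3.70 with the gates at 0.5 and 3.88 at 1.5. That of *Trgc2* turned from -4.78 to 3.97 and that of *Cd3g* from -6.45 to 2.28 with the gates at 0.5. The -6.45 of *Cd3g* is no measured ratio, since the G3SEKO cells had no read and the reads added before the ratio set its size. With the gates at 1.5 that of *Cd3d* turned from 2.46 to -1.93 and that of *Cd247* from 1.63 to -1.31. The share of CD3 gene-expressing cells moved to 6.24% (WT, experiment 1), 11.9% (G3SEKO, experiment 2) and 1.58% (WT, experiment 2) with no *Id2* limit. In that order it moved to 1.76%, 1.04% and 0.136% with *Cd3e* alone and to 1.76%, 1.47% and 0.156% with 2 of 3 genes. In the 43 G3SEKO cells of experiment 1 it went from 11.6% to 15.9% with no *Id2* limit (of 63 cells), 4.65% with *Cd3e* alone and 6.98% with 2 of 3 genes, all inside the interval of 3.89 to 25.1%. In the tests, directions turned for members that had not passed. The genotype change of *Trbc2* was 0.0075 with 1 sum per hashtag. That of *Trdc* was -0.91 per hashtag, -0.58 with the gates at 0.5 and -0.60 without the top cells. *Trbc1* by CD3 gene expression was 0.080 with DESeq2, 0.14 with 2 of 3 genes, 0.23 with *Cd3e* alone and 0.32 with no *Id2* limit.

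Each experiment alone gives a ratio with no test, so counts of calls have no such value. *Trbc1* changed by -3.47 to -2.79 from Zbtb16+Icos- to ST2+ cells, and the genotype ratio in precursors ran from 2.84 to 4.17 for *Trgc2* and from -2.28 to 2.45 for *Trdc*, which thus turned with the experiment. In thinned ST2+ cells of experiment 2 the log2 ratio was 3.63 for *Trdc* and 6.10 for *Trac*, against 3.42 and 6.34 unthinned, and for *Trgc2*, which rests on 1 G3SEKO read, -1.80 against -4.78.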
